A study of Mus musculus with 4 samples.

Results

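The genes described here are Ccr7, Ccl17, Ccl22, Ccr4, Ccr8 and Ccl1, 3 chemokine receptors and 3 chemokine ligands of the CCR7, CCR4 and CCR8 axes. They were taken by name from the table that joins 2 single-cell libraries, and they are 6 of its 13071 genes. Each value is given per cell type as annotated by the authors and per library. The ligands are described in dendritic cells, macrophages and lymphocytes, and the receptors in T cell and dendritic cell clusters. All 6 genes had unique molecular identifiers (UMIs, each marking 1 captured RNA molecule) in the B16 library, whereas Ccr4 and Ccr8 were listed at 0 in the LLC library. The LLC library came from subcutaneous tumours of LLC, a mouse lung carcinoma line, in mice of the strain F11r fl/fl LysM-Cre-, which carry floxed F11r and no Cre. The CITE-seq LLC library, in which antibody tags were read with the RNA, came from LLC tumours in C57BL/6J mice. The B16 library came from subcutaneous tumours of the melanoma line B16 in C57BL/6J mice. Each sample pooled 3 mice and was run on the 10x Genomics platform, and the labels name no treatment. With 1 library per group there is no replicate check, and the tumour line cannot be told apart from the library. Between the LLC and B16 libraries it cannot be told apart from the host strain either, whereas the CITE-seq LLC and B16 libraries share C57BL/6J hosts.

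CCR7 is the receptor that guides maturing dendritic cells from tissues to the lymph node and keeps naive T cells and B cells circulating through it. CCL17 and CCL22 are ligands of CCR4, a receptor of regulatory T cells and T helper 2 cells, and are made mainly by dendritic cells and by macrophages exposed to interleukin 4. CCL1 is made by activated T cells and is a ligand of CCR8, a receptor found on regulatory T cells in tumours.

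The 2 CCR4 ligands are neighbours on chromosome 8. In GENCODE vM21 on mm10, Ccl22 lies at chr8:94745590-94751699 and Ccl17 at chr8:94810453-94812036, both on the plus strand and 58753 bases apart. Cx3cl1, which encodes fractalkine, lies between them at chr8:94772009-94782427. Of the receptors, Ccr7 is at chr11:99144196-99155077 on the minus strand, Ccr4 at chr9:114490316-114504916 on the minus strand and Ccr8 at chr9:120092114-120094906 on the plus strand. Ccl1 is at chr11:82176657-82305690 on the minus strand. RefSeq promoter windows on GRCm38.p6 matched 5 of the 6 genes and not Ccr7. The windows of Ccl17 and Ccl22 are printed because these neighbouring genes were both higher in LLC than in B16 dendritic cells of 2 clusters. The sequences run 5′ to 3′ on the plus strand and end at the base before the annotated start, at chr8:94810203-94810452 for Ccl17 and chr8:94745434-94745589 for Ccl22. Capitals mark matches to the STAT motif, which is TTC and GAA with 3 bases of any kind between them, or to the STAT6 motif, which is the same with 4 bases between.
Ccl17: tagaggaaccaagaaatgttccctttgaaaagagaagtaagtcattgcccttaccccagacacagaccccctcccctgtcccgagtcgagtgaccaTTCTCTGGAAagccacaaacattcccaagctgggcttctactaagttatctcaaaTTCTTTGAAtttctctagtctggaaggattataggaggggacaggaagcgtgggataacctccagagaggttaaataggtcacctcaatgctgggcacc
Ccl22: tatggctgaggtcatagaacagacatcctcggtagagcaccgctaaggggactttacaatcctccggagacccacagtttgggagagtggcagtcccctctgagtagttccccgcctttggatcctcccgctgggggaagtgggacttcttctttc
In the Ccl17 window the STAT6 motif matched 154 to 145 bases before the start and the STAT motif 99 to 91 bases before it. The Ccl22 window held neither. Searching both strands of windows of 300 bases, the STAT6 motif was in 6.95% and the STAT motif in 8.30% of 32851 promoters. The kB consensus, found in 8.46% of them, matched in neither window. The 2 motifs do not overlap in the Ccl17 window, and a match is a description of the letters, not a measured site.

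The joint table held 13021 LLC cells with a median of 6174 UMIs and 6870 B16 cells with a median of 8315 UMIs. It listed 1517 genes at 0 in LLC and 272 in B16. No gene with a UMI in LLC was found in fewer than 3 LLC cells, so a gene seen in fewer cells than that may be listed at 0. The 2 libraries shared 29 cell barcodes. Levels are in CPM, the UMIs of a gene per 1000000 UMIs of all genes in the cells named. Brackets after a level, ratio or share hold exact 95% intervals (Poisson, conditional binomial and Clopper-Pearson), which cover counting error only. A ratio is called higher at 1.5 or more and lower at the inverse of that, a rule of size, when both sides together held at least 20 UMIs. UMIs of 1 cell are not independent, and several values below rest on 1 cell, so the number of cells with a UMI is given with each level. The authors' clusters were made from these transcripts, so levels across clusters are a description with no test.

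The 3 dendritic cell clusters held most of the RNA of the CCR4 ligands in both tumours. Cells annotated migDC, whose marker genes are those of mature migratory dendritic cells, were 88 of the LLC cells and 156 of the B16 cells. They held 88.0% of all Ccl22 UMIs in LLC and 91.4% in B16. For Ccl17 the largest holder was cDC2 in LLC, with 54.0% of 1331 UMIs, and migDC in B16, with 39.8% of 495 UMIs. Ccr7 RNA was also held mainly by migDC, with 78.9% of 1458 UMIs in LLC and 72.8% of 3971 UMIs in B16. Ccl1 stood apart, with 82.6% of its 3049 B16 UMIs in CD8 T cells.

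**Figure D1:**
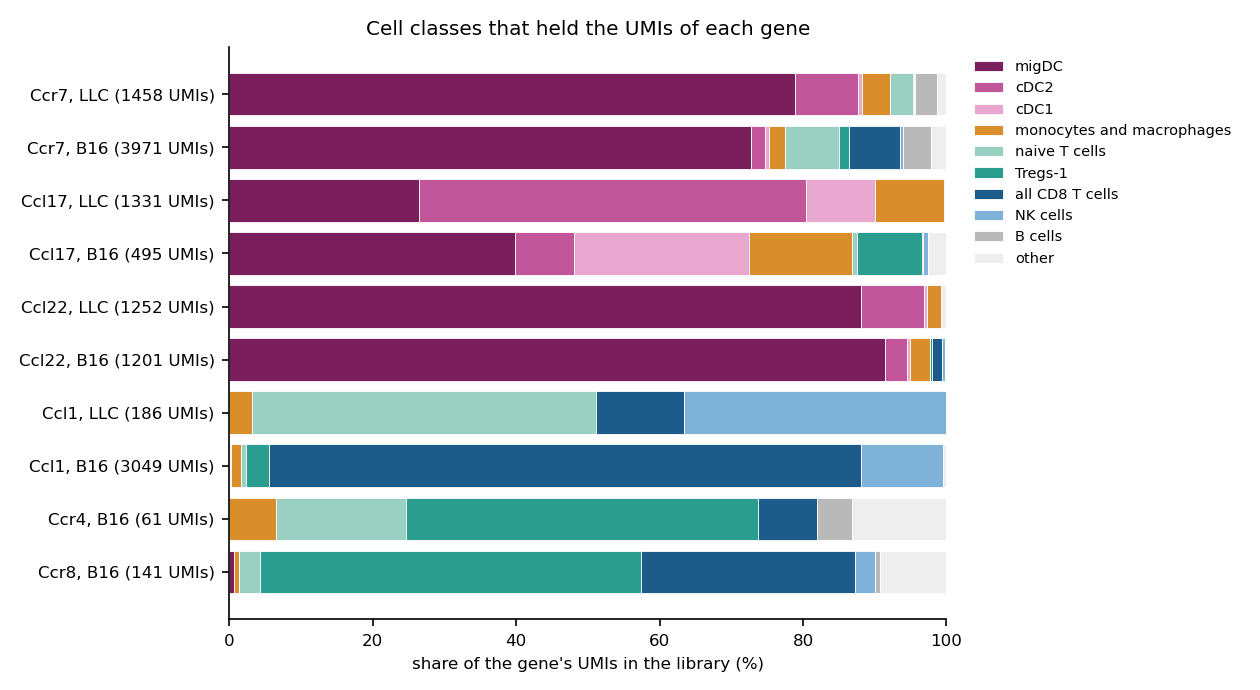
Each bar splits the UMIs of 1 gene in 1 library by cell class, as a share in percent on the horizontal axis. migDC held 88.0% of the Ccl22 UMIs in LLC and 91.4% in B16, while cDC2 held 54.0% of the Ccl17 UMIs in LLC and 8.28% in B16.

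**Figure D2:**
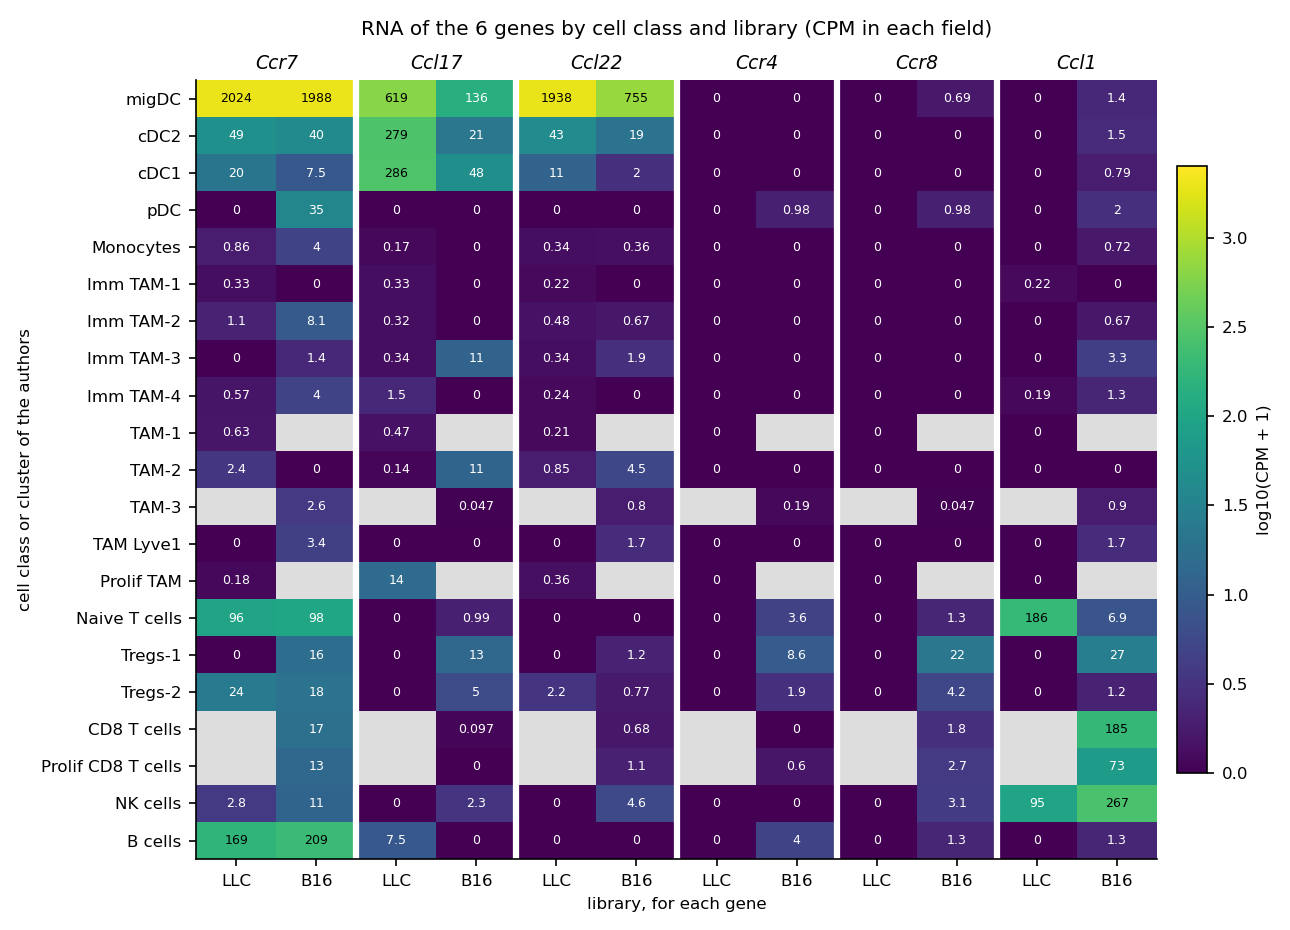
Level of each gene in CPM by cell cluster (vertical axis) and library (horizontal axis), with the LLC column left of the B16 column. Colour is log10(CPM + 1), and grey fields had fewer than 20 cells. Ccr7, Ccl17 and Ccl22 were highest in the dendritic rows, and Ccr4 and Ccr8 were listed at 0 in every LLC field.

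In migDC, both CCR4 ligands were higher in the LLC library and Ccr7 was level. The migDC markers fixed for the check, among them Fscn1, the actin bundling protein of mature dendritic cells, were above 0 for 6 of 6 genes in both libraries and summed to 4225 CPM in LLC and 3478 CPM in B16. Ccl17 had 352 UMIs in LLC migDC and 197 in B16 migDC, or 619 CPM (556 to 687) against 136 CPM (117 to 156). The ratio was 4.57 (3.82 to 5.46). Ccl17 was found in 35 of 88 LLC cells, or 39.8% (29.5 to 50.8), and in 32 of 156 B16 cells, or 20.5% (14.5 to 27.7). Per cell the LLC migDC were shallower, with a median of 5808.5 UMIs against 8794.5 in B16, and after thinning to 2000 UMIs the shares were 26.7% and 9.02%, with 4 LLC and 3 B16 cells too shallow to count.

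Ccl22 had 1102 UMIs in LLC migDC and 1098 in B16 migDC, or 1938 CPM (1825 to 2056) against 755 CPM (711 to 802). The ratio was 2.56 (2.36 to 2.79). It was found in 74 of 88 LLC cells, or 84.1% (74.8 to 91.0), and in 121 of 156 B16 cells, or 77.6% (70.2 to 83.8). Most migDC of both tumours thus carried Ccl22 RNA, and the shares overlapped in their intervals. LLC cells with Ccl22 carried more of it, at a median of 7.5 UMIs against 4 in B16. Of the 3 genes measured in migDC, 2 were higher in LLC and none lower, beside 12.7% of all 6614 measured genes higher and 15% lower.

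The ligand RNA was unevenly spread over the migDC. In LLC, 10 migDC with at least 10 UMIs of Ccl17 held 302 of the 352 UMIs, and in B16, 5 such cells held 138 of 197. For Ccl22 there were 30 such cells in LLC, with 923 UMIs, and 38 in B16, with 816. Without the cell with most UMIs on each side, the ratio was 5.19 for Ccl17 and 2.45 for Ccl22, so neither rested on 1 cell. RNA of other cell types differed between the 2 migDC clusters. T cell markers summed to 19.3 CPM in LLC (4 of 5 above 0, Trac at 0) and 413 CPM in B16 (5 of 5). Neutrophil markers summed to 586 and 20.6 CPM and macrophage markers to 761 and 180 CPM, in LLC and B16, with all of them above 0. Without the cells with a UMI of the T cell or B cell genes Cd3d, Cd3e, Cd3g, Cd79a or Ms4a1, the ratios were 3.75 for Ccl17 and 2.34 for Ccl22. This left 86 LLC and 125 B16 migDC. Cells with neutrophil or macrophage RNA were not removed, and the part of that RNA was not tested.

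**Figure D3:**
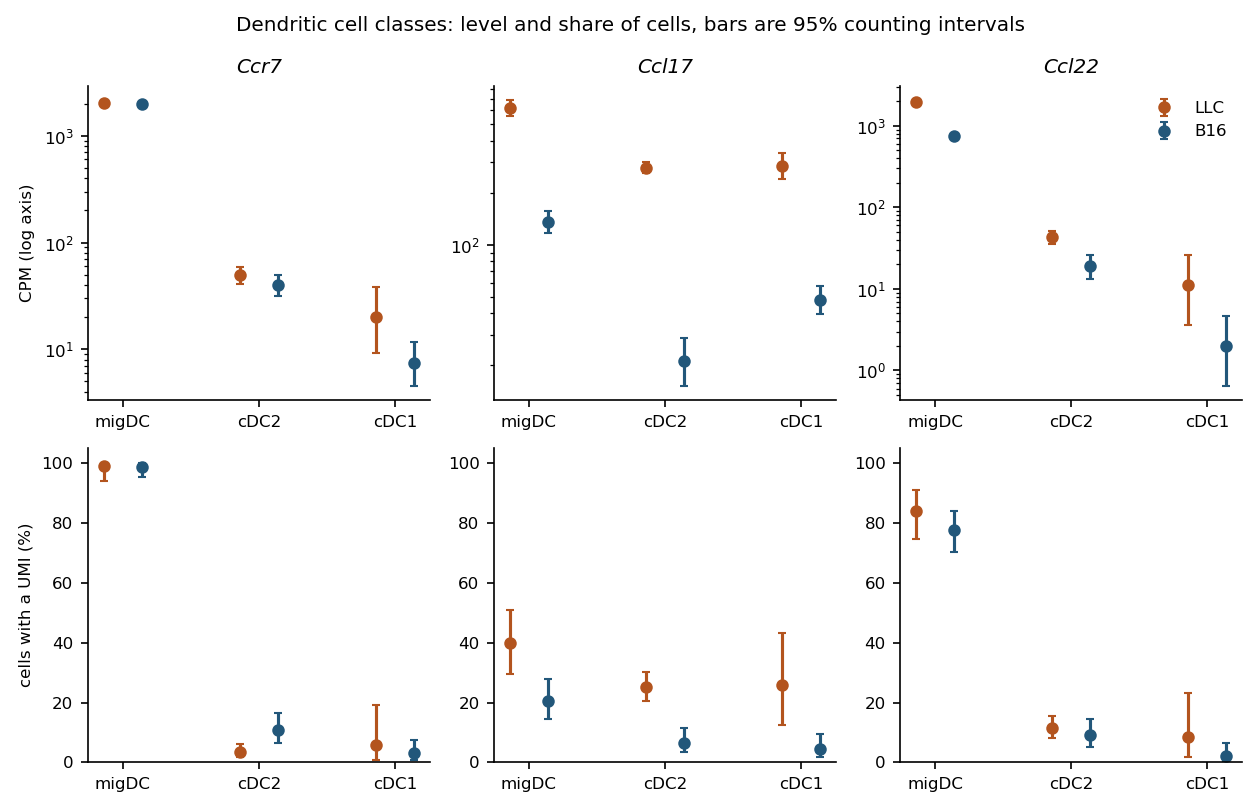
Level in CPM on a log axis (top) and share of cells with a UMI in percent (bottom) of Ccr7, Ccl17 and Ccl22 in 3 dendritic cell clusters, LLC left of B16, with exact 95% counting intervals. Ccl17 in cDC2 was 279 CPM in LLC and 21.1 CPM in B16, while Ccr7 in migDC was 2024 and 1988 CPM.

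**Figure D4:**
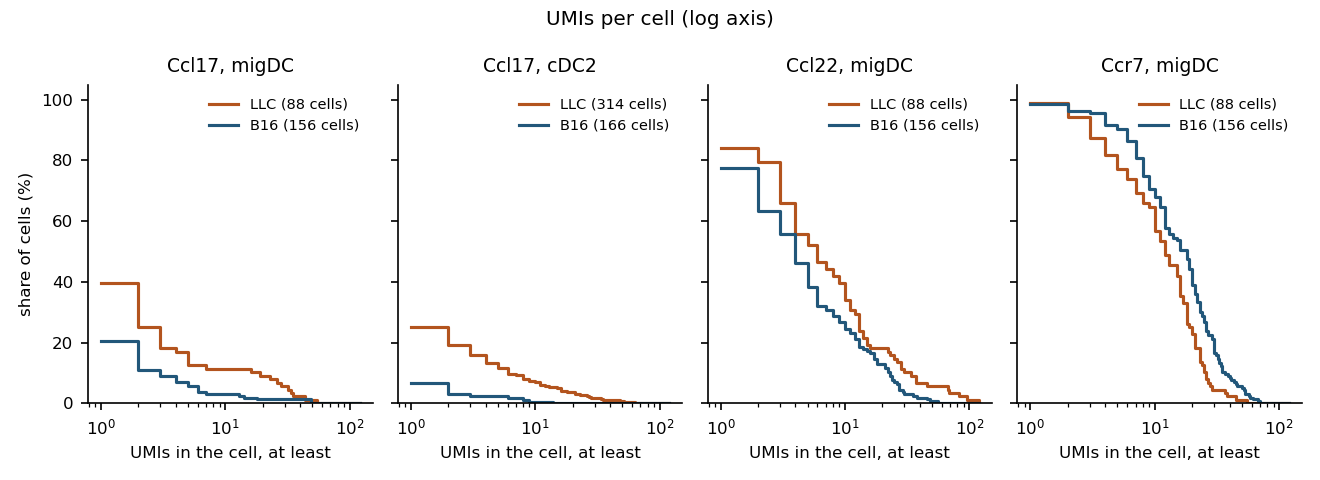
Share of cells in percent (vertical axis) that held at least the number of UMIs on the horizontal log axis, for 3 genes in migDC and for Ccl17 also in cDC2. The LLC curve starts at 39.8% and the B16 curve at 20.5% for Ccl17 in migDC, at 25.2% and 6.63% in cDC2.

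The wider gap was in cDC2, the conventional dendritic cells that mainly prime CD4 T cells. Ccl17 had 719 UMIs in 314 LLC cDC2 and 41 UMIs in 166 B16 cDC2, or 279 CPM (259 to 300) against 21.1 CPM (15.1 to 28.6). The ratio was 13.2 (9.67 to 18.6), and 17.6 without the top cell on each side. It was found in 79 LLC cells, or 25.2% (20.5 to 30.3), and in 11 B16 cells, or 6.63% (3.35 to 11.5). The B16 cDC2 were the deeper ones, with a median of 11773 UMIs against 7474 in LLC, so the lower share was in the deeper cells. Thinned to 2000 UMIs, the shares were 15.7% in LLC and 2.35% in B16. Naive T cells, taken as a measure of background, were shallower, at median depths of 2455 UMIs in LLC and 3736 UMIs in B16. They had no Ccl17 UMI in LLC, which allows a level of up to 6.26 CPM, and 0.991 CPM (0.204 to 2.90) in B16. The cDC2 levels were above these in both libraries, and the thinned B16 share was 2.35% in cDC2 and 0.309% in naive T cells.

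Ccl22 was 43.1 CPM (35.4 to 51.9) in LLC cDC2 and 19.0 CPM (13.4 to 26.2) in B16 cDC2, from 111 and 37 UMIs. The ratio was 2.27 (1.55 to 3.38), but the cell shares were close, at 36 of 314 LLC cells (11.5%, 8.16 to 15.5) and 15 of 166 B16 cells (9.04%, 5.15 to 14.5). Without the cells with high doublet scores the ratio was 1.51 (1.003 to 2.32), from 70 LLC UMIs and the same 37 B16 UMIs. No B16 cDC2 had such a score, so this setting left out LLC cells only. Ccl22 in cDC2 therefore differed in UMIs more than in cells. Of the 3 genes measured in cDC2, 2 were higher in LLC and none lower, beside 16.3% and 9.48% of 8769 measured genes.

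The cDC2 markers were above 0 for 5 of 5 genes in cDC2 of both libraries and summed to 1852 CPM in LLC and 1052 CPM in B16. The count above 0 does not set cDC2 apart, since it was also 5 of 5 in LLC cDC1, at a sum of 327 CPM. Markers of migDC summed to 181 and 122 CPM in LLC and B16 cDC2, with 5 of 6 above 0 and Apol7c at 0 in both. Monocyte markers summed to 1733 CPM in LLC cDC2 and 2291 CPM in B16 cDC2, and macrophage markers to 946 and 427 CPM. Neutrophil markers summed to 924 CPM in LLC cDC2 and 20.6 CPM in B16 cDC2. Markers of Langerhans-like cells were low, at 0.388 CPM in LLC cDC2 and 31.3 CPM in B16 cDC2. Without cells with a UMI of the T cell or B cell genes named above, the Ccl17 ratio was 12.6. Cells with neutrophil, monocyte or macrophage RNA were not removed. Without the cells with high doublet scores, all of them from LLC, the Ccl17 ratio was 13.4.

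Ccl17 in LLC cDC2 went with Mgl2, a C-type lectin of cDC2. Mgl2 was found in 71 of the 79 cells with Ccl17, or 89.9% (81.0 to 95.5), and in 101 of the 235 cells without it, or 43.0% (36.6 to 49.6). The cells with Ccl17 were deeper, at a median of 8863 UMIs against 7036. Cd209a, another C-type lectin of cDC2, was in 57.0% of the cells with Ccl17 and 46.0% of those without, with overlapping intervals. The mature marker Fscn1 was in 2 of the 79 and 2 of the 235 cells. Most LLC cDC2 with Ccl17 thus carried Mgl2 and lacked detectable Fscn1. In B16, 7 of the 11 cDC2 with Ccl17 carried Mgl2, against 54 of the 155 without.

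In LLC migDC every cell with Ccl17 also had Ccl22, but most cells with Ccl22 lacked Ccl17 in both tumours. All 35 LLC migDC with Ccl17 also had Ccl22, against 39 of the 53 without Ccl17, or 73.6% (59.7 to 84.7). In B16 it was 28 of the 32 with Ccl17 and 93 of the 124 without, or 87.5% (71.0 to 96.5) against 75.0% (66.4 to 82.3), with overlapping intervals. Ccl17 was found in 35 of the 74 LLC migDC with Ccl22 and in 28 of the 121 B16 migDC with it. In LLC cDC2, 21 of the 79 cells with Ccl17 had Ccl22, or 26.6% (17.3 to 37.7), against 15 of 235 without, or 6.38% (3.62 to 10.3). A cell with Ccl17 was deeper by the median than one without in each of these comparisons, and the part of depth in them was not tested.

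cDC1, the cells that cross-present antigen to CD8 T cells, numbered 35 in LLC and 134 in B16. Ccl17 was found in 9 of the LLC cells, or 25.7% (12.5 to 43.3), and in 6 of the B16 cells, or 4.48% (1.66 to 9.49). Levels were 286 CPM (239 to 340) in LLC and 47.8 CPM (39.7 to 57.2) in B16, a ratio of 5.98 (4.63 to 7.74). These levels rested on few cells, since 4 LLC cells held 117 of 128 UMIs and 2 B16 cells held 116 of 121. Of these cells, 1 of the 2 in B16 and 0 of the 4 in LLC were among those with the highest doublet scores. No alternative value was computed for the cDC1 ratio. Ccl22 had 5 UMIs in cDC1 of each library and was not compared. Ccr7 was called higher, at a ratio of 2.68 (1.07 to 6.22), from 9 and 19 UMIs of which 8 in LLC were in 1 cell. Both members measured were thus higher, beside 11.1% of 8081 measured genes higher and 21.4% lower in LLC cDC1. Of the 4 cDC1 markers 3 were above 0 in LLC cDC1. The other one, Clec9a, was listed at 0 in each LLC class examined, dendritic or not. Neutrophil markers summed to 2300 CPM in LLC cDC1 and 16.6 CPM in B16 cDC1, and their part in the result was not tested.

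Monocytes and macrophages held little of either ligand. Ccl17 was 1.65 CPM (1.37 to 1.96) in 9194 LLC cells and 2.12 CPM (1.66 to 2.68) in 2742 B16 cells, a ratio of 0.776 (0.576 to 1.05). It was found in 27 LLC cells and 8 B16 cells, 0.294% and 0.292%. Single cells set these levels, since 71 of 127 LLC UMIs were in 1 cell of the Prolif TAM cluster and 35 of 71 B16 UMIs in 1 cell of Imm TAM-3. Ccl22 was 0.325 CPM (0.210 to 0.479) in LLC and 0.987 CPM (0.680 to 1.39) in B16, from 24 and 27 cells, a ratio of 0.329 (0.187 to 0.570). The migDC over macrophage ratio was 5970 (4023 to 9266) in LLC and 765 (542 to 1117) in B16 for Ccl22. For Ccl17 it was 375 (306 to 464) and 63.8 (48.4 to 84.9), where 18.3% of genes were higher in LLC migDC and 18.9% in B16 migDC. Of the 4 members measured between tumours in this class, none was higher and 3 lower in LLC (Ccr7, Ccl22 and Ccl1), beside 11.9% of 11261 genes higher and 11.9% lower. Ccl17 also passed the limit for lower when taken as a mean over cells (0.665), with thinned cells (0.666), with the authors' annotation of B16 alone (0.526) and with LLC and B16 cells of the monocyte and macrophage table (0.631). The cells that held most of these 3 genes were more frequent in B16, with migDC at 0.676% of LLC and 2.27% of B16 cells and CD8 T cells at 0.115% and 17.8%, and their part in the result was not tested.

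The table of monocytes and macrophages alone, with other cluster names and a second LLC library, gave other values. Ccl22 was 1.77 CPM (1.44 to 2.15) in 10131 CITE-seq LLC cells, 0.291 CPM (0.172 to 0.460) in 8155 LLC cells and 1.13 CPM (0.751 to 1.63) in 2297 B16 cells. The ratio to B16 was therefore 1.57 (1.02 to 2.47) with the CITE-seq library, the reverse of the lower call above, between libraries of the same host strain. Ccl17 was 3.51 CPM (3.04 to 4.03) in CITE-seq LLC, 1.68 CPM (1.37 to 2.04) in LLC and 2.66 CPM (2.06 to 3.39) in B16. It was found in 56, 26 and 6 of these cells. The 2 LLC libraries lay on either side of B16 for both ligands, so no direction held in macrophages. Within LLC, the cluster that this table calls TAM-3 held 84 of the 104 Ccl17 UMIs. In CITE-seq LLC, TAM-4 held 98 and TAM-3 63 of 200, while in B16 Immature TAM-1 held 65 of 66.

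A list of 18 genes linked to signals that can induce CCL17 and CCL22 was counted. It included the interleukin 4 receptor chain Il4ra, its transcription factor Stat6 and the GM-CSF receptor genes. It also held the signalling inhibitors Socs1 and Cish and the TGF-beta genes Tgfb1, Tgfbr1 and Tgfbr2. Its counts are therefore not counts of inducing signals alone. In migDC, 5 of 18 measured genes were higher and 1 lower in LLC, beside 12.7% and 15% of all genes, with a median log2 ratio of 0.21 beside -0.0032 for all genes measured. Those higher were Stat6 (93.2 against 58.5 CPM, ratio 1.59), Csf2ra (1.55), Csf2rb2 (1.61), Il13ra1 (1.51) and Stat5b (1.51). The receptor chain Il2rg, at 0.626, was the one lower. Il4ra itself was 75.6 CPM in LLC and 104 CPM in B16, a ratio of 0.728 (0.506 to 1.03). In cDC2, 5 of 18 were higher and 1 lower, beside 16.3% and 9.48% of all genes, with a median of 0.38 beside 0.08 for all genes measured. Socs1, an inhibitor of cytokine receptor signalling, was the one lower, at 12.4 CPM in LLC cDC2 and 113 CPM in B16 cDC2, a ratio of 0.110 (0.0737 to 0.160). Those higher were Tgfbr1, Tgfb1, Il13ra1, Klf4 and Cish, at ratios of 1.55 to 1.85. Il4ra, Stat6 and the GM-CSF receptor genes were not among those called higher in cDC2.

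Genes of dendritic cell maturation were called in both directions. Of 24 mature dendritic cell genes measured in migDC, 3 were higher and 3 lower in LLC, close to the 12.7% and 15% of all genes, with a median log2 ratio of 0.05. The T cell attractant Ccl5 was 5625 CPM in LLC and 8687 CPM in B16, a ratio of 0.648 (0.623 to 0.673). The 3 higher were Tnfrsf9 (1.95), Anxa3 (1.57) and Il4i1 (1.55), and Tnfrsf4 (0.525) and the costimulatory ligand Cd86 (0.636) were lower with Ccl5. In cDC2, 7 of 22 measured were higher and 7 lower, beside 16.3% and 9.48% of all genes, with a median of -0.06. Cd40, which receives the maturation signal of T cells, was 30.7 CPM in LLC cDC2 and 92.0 CPM in B16 cDC2, a ratio of 0.333 (0.252 to 0.437), and Il4i1 was 83.4 against 23.6 CPM, a ratio of 3.53 (2.56 to 4.97).

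Ccr7 had its highest level in migDC of both tumours, a step above B cells and then naive T cells. In migDC it was 2024 CPM (1909 to 2144) in LLC and 1988 CPM (1916 to 2062) in B16, a ratio of 1.02 (0.950 to 1.09), and it was found in 87 of 88 and 154 of 156 cells. In B cells it was 169 CPM (123 to 226) in LLC and 209 CPM (178 to 245) in B16, and in naive T cells 96.0 CPM (70.3 to 128) and 97.8 CPM (87.0 to 110). None of these 3 classes differed by 1.5-fold, the ratio being 0.808 (0.566 to 1.13) in B cells and 0.981 (0.703 to 1.34) in naive T cells. Without cells with RNA of another lineage the naive T cell ratio was 0.635 (0.129 to 1.89), past the limit for lower, from 3 UMIs in the 22 LLC cells left. The background was 13.8% of genes higher and 17.6% lower in B cells, and 15.5% and 11.4% in naive T cells. The B cell level was 1.76 times (1.14 to 2.71) that of naive T cells in LLC, where 19.1% of genes were higher, and 2.14 times (1.75 to 2.61) in B16, where 18% were. RNA of neutrophils was high in these LLC cells, with neutrophil markers summing to 8052 CPM in LLC B cells and 729 CPM in B16 B cells, beside 5424 and 5903 CPM of B cell markers. In naive T cells the neutrophil markers summed to 1788 CPM in LLC and 587 CPM in B16. Their part in the Ccr7 levels was not tested.

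Among the dendritic clusters, Ccr7 in migDC was 41.1 times (34.2 to 49.7) the cDC2 level in LLC and 49.6 times (39.6 to 62.9) in B16, where 17.9% and 20.3% of genes were higher. All 3 dendritic members were called higher in migDC than in cDC2 in both libraries. cDC2 had 49.3 CPM (41.1 to 58.6) of Ccr7 in LLC and 40.1 CPM (31.7 to 50) in B16, from 11 of 314 and 18 of 166 cells. These cDC2 UMIs were in few cells, since the 5 highest held 81.9% of them in LLC and 79.5% in B16. Without the top cell on each side the B16 ratio was 111.9 in place of 49.6. The LLC ratio was 66.4 as a mean over cells, 65.3 with thinned cells and 63.5 without the cells with high doublet scores, in place of 41.1. Positive cDC2 held a median of 10 UMIs in LLC and 1 in B16, against 11 in LLC and 17 in B16 for positive migDC. Most cDC2 had no Ccr7 detected. In pDC of B16, 29 of 36 Ccr7 UMIs were in 1 cell, and 21 LLC pDC had none.

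Below naive T cells, Ccr7 in B16 was 18.4 CPM in Tregs-2, 17.1 CPM in CD8 T cells and 15.8 CPM in Tregs-1. It was 13.0 CPM in proliferating CD8 T cells and 11.4 CPM in NK cells, and the intervals of neighbours overlap. Of the B16 Tregs-2, 94 of 165 cells were among those with the highest doublet scores. Naive T cells had 6.18 times (4.62 to 8.39) the level of Tregs-1, with 171 of 743 and 27 of 546 cells positive, beside 12.1% of genes higher. The ratio was 9.36 as a mean over cells, 9.52 with thinned cells and 10.6 without cells with RNA of another lineage. In LLC, Tregs-1 had no Ccr7 UMI in 41 cells, which allows a level of up to 22.8 CPM and does not separate it from B16. Macrophages gave the background, with Ccr7 in 0.326% of LLC cells and 2.12% of B16 cells at median depths of 6944 and 10187.5 UMIs. The B16 shares of T cells lay above it.

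Surface CCR7 was read by the tag against CD197 in the CITE-seq monocytes and macrophages, the only cells for which tags were analysed here. It averaged 0.138 UMIs per cell over 10131 cells and was found in 10.6% of them. The 9 isotype control tags, which measure unspecific binding, averaged 0.0248 to 0.890, with 7 below and 2 above it. Over the isotype controls the median average was 0.0549 and the median share of cells 3.03%. The CD197 tag was thus above the median isotype control but within the range of the 9. TAM-4 had the highest CD197 average, at 0.224, beside a median isotype average of 0.0748. Its cells held a median of 767 tag UMIs against 538 over all cells, and the part of this was not tested.

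Ccr8 RNA, and less firmly Ccr4 RNA, was higher in regulatory T cells than in naive T cells of B16, at low counts. The cluster Tregs-1 carried all 4 Treg markers in both libraries, with a summed level of 4227 CPM in LLC cells and 3066 CPM in B16 cells. Ccr8 had 75 UMIs in 64 of 546 B16 Tregs-1, or 11.7% (9.15 to 14.7), and 4 UMIs in 4 of 743 naive T cells. The levels were 21.6 CPM (17.0 to 27.1) and 1.32 CPM (0.360 to 3.38), a ratio of 16.3 (6.12 to 61.5). With so few naive T cell UMIs the size of the ratio was loose, at 29.4 (7.86 to 247) with the authors' annotation of B16 alone and 41.6 (6.95 to 1694) without cells with RNA of another lineage. No Tregs-1 cell held more than 2 UMIs of Ccr8, so no single cell set this value. Thinned to 2000 UMIs, the shares were 4.37% in Tregs-1 and 0.224% in naive T cells. Ccr8 was 2.25 CPM (1.62 to 3.04) in CD8 T cells, or 40 of 1224 cells, so Tregs-1 had 9.59 times (6.49 to 14.4) that level, where 20.7% of genes were higher. In macrophages, which give the background, 1 of 2742 cells had a UMI, at a median depth of 10187.5 against 4475 in Tregs-1.

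Ccr4 had 30 UMIs in 26 of the B16 Tregs-1, or 4.76% (3.13 to 6.90), and 11 UMIs in 11 naive T cells, or 1.48% (0.741 to 2.63). The levels were 8.64 CPM (5.83 to 12.3) and 3.63 CPM (1.81 to 6.50), a ratio of 2.38 (1.16 to 5.26). It was in 3 of 1224 CD8 T cells and 4 of 2742 macrophages. Ccr4 rests on 61 UMIs in all B16 cells, and its ratio was not firm. It was 1.97 (0.950 to 4.38) with the authors' annotation of B16 alone and 1.82 (0.497 to 7.27) without cells with RNA of another lineage. Both intervals hold 1, and the second value rests on 7 and 5 UMIs, too few to count as measured. Among Tregs-1, Ccr4 was found in 4 of the 64 cells with Ccr8 and 22 of the 482 without. These shares were 6.25% (1.73 to 15.2) and 4.56% (2.88 to 6.83), with overlapping intervals. Foxp3, the defining factor of these cells, was found in 54 of the 64 with Ccr8 and 375 of the 482 without, or 84.4% (73.1 to 92.2) against 77.8% (73.8 to 81.4). Of the 5 members measured between Tregs-1 and naive T cells, 4 were higher (Ccr8, Ccr4, Ccl1 and Ccl17) and 1 lower (Ccr7), beside 25% and 12.1% of 9803 genes. All 45 Ccl17 UMIs of B16 Tregs-1 were in 1 cell.

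Of a list of 20 Treg genes, 18 were higher and none lower in Tregs-1 than in naive T cells, beside 25% and 12.1% of all genes. Their median log2 ratio was 3.49 beside 0.18 for all genes. Foxp3 was 346 against 7.27 CPM and the interleukin 2 receptor chain Il2ra 298 against 16.2 CPM in Tregs-1 and naive T cells. Of 11 naive or central memory T cell genes, none was higher and 11 were lower, beside the same shares of all genes, with a median of -2.75. Tcf7 was 9.50 against 275 CPM. Because the clusters were made from such genes, these counts describe the clusters. Of the T helper 2 list 2 of 7 genes were in the table, Gata3 at 84.3 against 69.4 CPM and Il1rl1 at 8.64 against 4.29 CPM.

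In LLC the receptors could not be judged. The LLC Tregs-1 were 41 cells with 131546 UMIs in all, which at the B16 level would give 2.84 UMIs of Ccr8 and 1.14 of Ccr4. The LLC naive T cells would give 0.633 and 1.74. A gene seen in fewer than 3 LLC cells may have been listed at 0, so a difference from B16 was not detectable at this depth. The figures show Tregs-2 for both receptors, but no comparison of either receptor used these cells. Macrophage markers in them summed to 3219 CPM in LLC cells and 4943 CPM in B16 cells and Treg markers to 447 and 1059 CPM, and 36 of 47 LLC and 94 of 165 B16 cells were among the cells with the highest doublet scores.

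**Figure D5:**
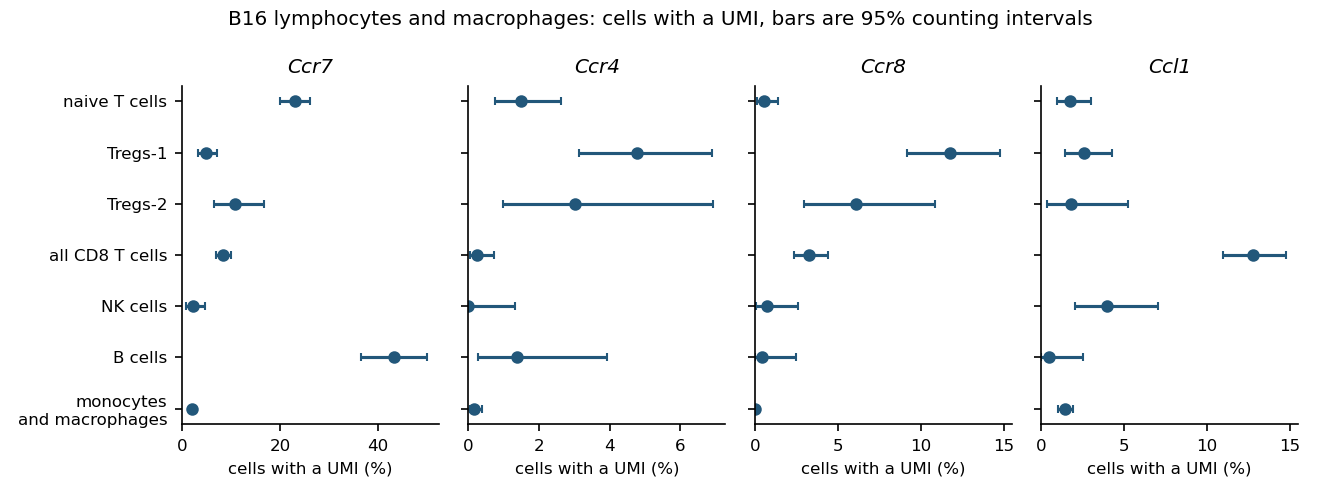
Share of B16 cells with a UMI of Ccr7, Ccr4, Ccr8 or Ccl1 (horizontal axis, percent, scaled per gene) in lymphocyte classes and macrophages (vertical axis), with exact 95% intervals. Ccr8 was found in 11.7% of Tregs-1 and Ccl1 in 12.7% of CD8 T cells.

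Ccl1, the CCR8 ligand, was a gene of a minority of B16 CD8 T cells and NK cells. It had 1907 UMIs in 111 of 787 CD8 T cells and 611 UMIs in 45 of 437 proliferating CD8 T cells, or 14.1% (11.7 to 16.7) and 10.3% (7.61 to 13.5). NK cells had 350 UMIs in 11 of 276 cells, or 3.99% (2.01 to 7.02). The background was 1.42% of B16 macrophages (1.01 to 1.94), thinned to 0.327%, beside 5.59% of CD8 T cells and 2.84% of NK cells when thinned. Naive T cells and Tregs-1 were shallower than macrophages, at median depths of 3736 and 4475 UMIs against 10187.5, and had a Ccl1 UMI in 1.75% (0.935 to 2.97) and 2.56% (1.41 to 4.26) of cells. Thinned, these shares were 1.17% and 1.68%, both above the thinned 0.327% of macrophages. The levels were 6.94 CPM (4.29 to 10.6) in naive T cells, 27.3 CPM (22.1 to 33.4) in Tregs-1 and 1.32 CPM (0.956 to 1.77) in macrophages, and 3 Tregs-1 cells held 77 of their 95 UMIs.

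The Ccl1 level was set by few cells. The 47 CD8 T cells with at least 10 UMIs, of 1224 in the 2 CD8 clusters, held 2264 of their 2518 UMIs, and the top cell held 278. In NK cells 1 cell held 251 of 350 UMIs, so the NK level of 267 CPM (240 to 297) beside 135 CPM (130 to 140) in CD8 T cells gives no order of the 2. Against naive T cells, CD8 T cells had 19.4 times (12.7 to 31.5) the Ccl1 level, beside 28.3% of genes higher. CD8 T cells with Ccl1 carried Xcl1, another chemokine of activated lymphocytes, in 80 of 156 cells, or 51.3% (43.2 to 59.4), and those without in 163 of 1068, or 15.3% (13.2 to 17.6). They were deeper, at a median of 17551 UMIs against 12529.5, and the part of depth in this was not tested. Ifng, the effector cytokine, was in 140 of the 156 and 847 of the 1068 cells.

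Ccl1 in LLC was found in 10 cells. One cell annotated as a naive T cell held 88 UMIs and was among those with the highest doublet scores, and another naive T cell held 1 UMI. One NK cell held 68 and 1 of 4 CD8 T cells held 23, and 6 macrophages had 1 UMI each. The ratios of 26.8 in naive T cells and 0.355 in NK cells between LLC and B16 therefore each rest on 1 LLC cell. Of the genes measured in NK cells 9.31% were higher and 15.5% lower.

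Other genes of the axes in the table numbered 3, out of 9 looked for. The CCR7 ligand genes Ccl19, Ccl21a, Ccl21b and Ccl21c and the decoy receptors Ackr2 and Ackr4 were not analysed here. Ccl8, whose mouse product is a CCR8 ligand, was a macrophage gene, with 98.3% of 4317 LLC UMIs and 93.1% of 40878 B16 UMIs in monocytes and macrophages. Over all monocytes and macrophages its level was 55.1 CPM (53.4 to 56.8) in LLC and 1138 CPM (1127 to 1150) in B16. In the small cluster TAM Lyve1 it was 6827 CPM in 23 LLC cells and 4672 CPM in 42 B16 cells, and 1 of these LLC cells held 550 of 1638 UMIs. It was 1643 CPM in the 1292 TAM-3 cells of B16. Most UMIs of Ccl8 and of Ccl1, both ligands of CCR8, were thus held by separate cell classes in B16. Ccl8 was also found in 224 of 1224 B16 CD8 T cells, at 80.3 CPM, and Ccl1 in 39 B16 monocytes and macrophages. The part of carried-over RNA or doublets in this was not tested. Dpp4, whose product clips CCL22, was level between LLC and B16 in migDC, at 104 and 92.9 CPM (ratio 1.12, 0.808 to 1.53), and in cDC2, at 71.4 and 86.8 CPM (ratio 0.822, 0.664 to 1.02). Cx3cl1, the gene between the 2 ligands, had 35 of its 47 B16 UMIs in migDC and was listed at 0 in LLC.

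Genes with the most similar pattern were ranked by Pearson's r of log2(CPM + 10) with each member. The 41 points were clusters of at least 30 cells, in LLC or B16, and share library and depth, so r is a description. For Ccr7 the first were H2-Eb2 (0.884), an MHC class II gene, Il4i1 (0.859), Foxp4 (0.838), Relb (0.812), a factor of the non-canonical NF-kappaB pathway, and Cd200 (0.798). For Ccl22 they were Fscn1 (0.964) and the calcium channel subunit Cacnb3 (0.955). For Ccl17 they were Zbtb46 (0.926), the transcription factor of conventional dendritic cells, and Adam23 (0.889). For Ccl1 they were Eomes (0.908), a transcription factor of cytotoxic lymphocytes, and Crtam (0.893). Between members, r was 0.801 for Ccl17 with Ccl22, 0.785 for Ccr7 with Ccl22 and 0.612 for Ccr7 with Ccl17. Of the 5 genes most like Ccl22, 3 (Fscn1, Cacnb3 and Apol7c) were on the list of migDC markers, and of the 5 most like Ccl17, Zbtb46 was on the list of markers of all conventional dendritic cells. Ccr4 and Ccr8 had too few UMIs to be ranked.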

How the data were processed

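Droplet single-cell RNA libraries of LLC tumours, of LLC tumours read by CITE-seq and of B16 tumours were used, 1 library per group. The submitters' processing notes name Cell Ranger and the build mm10. The tables the authors deposited hold whole-number UMI counts for each gene and cell, not normalized, and antibody tag counts for the CITE-seq cells. Filter limits, sorting and clustering steps were not given in the sources used here. Cell names are the authors' deposited annotation and were not rebuilt. The joint table of LLC and B16 was the main source. The 10 monocyte and macrophage clusters of its 25 clusters were joined into 1 class, without neutrophil-like monocytes, and both CD8 clusters into another.

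Counts were summed per cluster and library and divided by the class total, on a CPM scale. Ratios have exact conditional binomial, levels exact Poisson and shares exact Clopper-Pearson 95% intervals, which cover counting error only. No p value was computed, since the cells of a library do not replicate it. A gene was measured between tumours when both libraries held it and both sides together had at least 20 UMIs and called at 1.5-fold. An upper limit for 0 is 3 counts of the total. Thinned shares are expected values at 2000 UMIs per cell, computed without random draws, with shallower cells left out. Scrublet in scanpy 1.11.5 called 1 LLC and 0 B16 doublets, so it did not work, and an alternative left out the 6% of cells with the highest scores in each library. Other alternatives were the mean of CPM over cells, thinning, scaling to the median gene and the authors' annotation of B16 alone. The monocyte and macrophage table was another, as was removal of cells with RNA of another lineage. Removal of the top cell on each side was added after seeing the data. RNA of another lineage meant a UMI of Cd3d, Cd3e, Cd3g, Cd79a or Ms4a1 in dendritic cells and macrophages. In T cell classes it meant a UMI of C1qa, C1qb, Lyz2, Cd79a or Ms4a1.

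The named genes are the 6 members, other genes of their axes, genes of 5 lists, marker genes, and per member the 5 most similar genes. Cells with both Ccl17 or Ccl1 and another gene, and single high cells, were chosen after their values were seen. Members and lists were chosen with earlier results of these data known, and no earlier pattern is given as independent support. Positions are from GENCODE vM21 and promoters from RefSeq, matched by symbol. Python 3.11.15, numpy 2.4.6, scipy 1.17.1 and pandas 2.3.3 were used.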

Additional observations from a re-analysis of the deposited data

Results flagged for a closer look

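The Ccl1 ratio of NK cells over naive T cells pointed in opposite directions in the 2 tumours, 0.510 (0.366 to 0.707) in LLC and 38.5 (24.8 to 63.0) in B16. The difference between these ratios was not tested. In LLC each side rests on 1 cell, a naive T cell with 88 of 89 UMIs, which was among the cells with the highest doublet scores, and an NK cell with all 68 UMIs. In B16, 1 NK cell held 251 of the 350 NK cell UMIs.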

How the results depend on the processing

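Of 94 alternative values for 13 results, 74 moved by less than the counting interval of the reported value, 19 moved further and 1 reversed. The Ccl22 ratio of LLC over B16 in monocytes and macrophages became 1.57 with the CITE-seq LLC library, in place of 0.329, and the Ccl17 ratio there became 1.32, in place of 0.776, and 0.526 with the B16 annotation. The cause was not tested. In migDC, Ccl17 was 3.67 without high doublet scores and 3.75 without RNA of another lineage, in place of 4.57. Ccl22 was 2.22 as a mean over cells, 2.20 thinned and 2.34 without other lineages, in place of 2.56, and Ccr7 0.949 in the last setting. Ccl22 in cDC2 was 1.51 without high doublet scores, a setting that left out LLC cells only. Ccr7 in naive T cells was 0.635 (0.129 to 1.89) without other lineages, which passes the limit for lower but rests on 22 LLC and 368 B16 cells with 3 and 138 UMIs. Ccr7 in migDC over cDC2 was 66.4 (mean), 65.3 (thinned), 63.5 (no high doublet scores) and 54.6 (no top cell) in LLC. In B16 it was 37.8 (B16 annotation) and 111.9 (no top cell). Ccr7 in naive T cells over Tregs-1 was 9.36 (mean), 9.52 (thinned) and 10.6 (no other lineages). Genes called in migDC numbered 1830, but 797 at 50 UMIs and 724 at 2-fold. A ratio with equal weights per macrophage cluster was not computed, and some clusters had 0 UMIs. Ccl17 had 1 LLC and 65 B16 UMIs in Imm TAM-3, and 31 and 0 in Imm TAM-4. Ccl22 had 1 and 11 UMIs in Imm TAM-3, and 5 and 0 in Imm TAM-4. Imm TAM-2 and Monocytes held 3 UMIs or fewer of either gene in each library. No paired analysis was possible because each group is 1 library. Depth limits Ccr4, Ccr8 and all LLC lymphocyte values.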
